A study of Mus musculus with 8 samples.

Results

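The matrix metalloproteinases (MMPs), the ADAMTS proteases (a disintegrin and metalloproteinase with thrombospondin motifs) and their inhibitors, the TIMPs, were examined as 1 gene set in mouse breast tumors. Members were the autosomal protein-coding genes of GENCODE M21 whose symbols are Mmp or Adamts followed by a number, or Timp followed by a number. The rule gave 44 of 21938 protein-coding genes, 22 MMPs, 19 ADAMTS genes and 3 TIMPs, and it used no measured value. The X-linked Timp1 and Mmp1a, which the annotation does not class as protein-coding, fell outside it.

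Tumors carried the polyoma middle T oncogene (PyMT, driven by the mouse mammary tumor virus promoter in mammary epithelium) in Balb/c mice lacking Rag1, which have no T or B cells of their own. When 4 weeks old, all hosts had received wild type CD4+ T cells. The 2 control tumors came from PyMT;Rag1KO mice, and the 2 test tumors came from K14-TSLPtg;PyMT;Rag1KO mice, which also express thymic stromal lymphopoietin (TSLP) from the keratin 14 promoter of basal epithelial cells. Every tumor was taken at terminal size, and by their titles the control samples are tumors and the test samples cysts.

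Chromatin immunoprecipitation had been done for the H3K27ac mark (acetyl groups on lysine 27 of histone H3), which is found at promoters and enhancers in use. Each list held the positions of the peaks of 1 tumor in mm10 (GRCm38), with no height, so presence and width were the measures. Lists held between 59762 intervals (test 2) and 69861 intervals (control 1), covering 64.3 to 73.1 Mb. The read depth behind them is unknown. Whole tumor pieces were profiled, so fewer cells of a type and less acetylation per cell cannot be told apart.

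MMPs are zinc endopeptidases that cut collagens, gelatins and other matrix proteins, and they are made as inactive precursors. ADAMTS proteases are secreted relatives that bind the matrix. Some cut proteoglycans such as versican and aggrecan, and some trim procollagens. TIMPs bind the active site of these enzymes and block it. In breast tumors much of this system is known from stromal cells such as fibroblasts and macrophages, while a few members, such as the matrilysin Mmp7, are typical of epithelium.

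Sequences of 6 elements are shown to give the letters at members whose coverage or regions differed between the groups. The peaks that differed need not lie over the printed bases, and most of the Mmp7 stretch falls between peaks. They were chosen after the values were seen. The first 4 are the bases upstream of the start of Adamts9 and Mmp7, where coverage was higher in both control tumors, and of Adamts3 and Mmp15, where it was higher in both test tumors. They are RefSeq promoters of GRCm38.p6, printed 5′ to 3′ in the direction of transcription. The 2 others, within Timp2 and Adamts9, lay in the peaks of both control tumors and in no peak of either test tumor, and are printed on the plus strand. Capitals mark matches to the AP-1 motif TGANTCA or the RUNX motif TGTGGT on either strand.
Adamts9 promoter, chr6:92943535-92943784, minus strand: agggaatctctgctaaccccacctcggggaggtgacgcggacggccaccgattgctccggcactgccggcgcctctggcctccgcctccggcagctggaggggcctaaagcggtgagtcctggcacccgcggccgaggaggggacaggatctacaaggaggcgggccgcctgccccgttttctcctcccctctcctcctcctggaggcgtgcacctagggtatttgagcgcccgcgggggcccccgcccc
Mmp7 promoter, chr9:7691840-7692089, plus strand: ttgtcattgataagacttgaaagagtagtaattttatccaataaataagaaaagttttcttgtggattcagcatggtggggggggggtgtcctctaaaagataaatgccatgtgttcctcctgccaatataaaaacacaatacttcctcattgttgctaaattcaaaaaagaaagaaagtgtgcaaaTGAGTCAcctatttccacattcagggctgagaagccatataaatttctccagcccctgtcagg
Adamts3 promoter, chr5:89883335-89883584, minus strand: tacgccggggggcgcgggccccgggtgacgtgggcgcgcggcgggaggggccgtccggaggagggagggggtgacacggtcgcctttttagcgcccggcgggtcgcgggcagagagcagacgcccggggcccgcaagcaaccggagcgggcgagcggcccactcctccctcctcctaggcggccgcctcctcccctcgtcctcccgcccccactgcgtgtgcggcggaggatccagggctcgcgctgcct
Mmp15 promoter, chr8:95352046-95352267, plus strand: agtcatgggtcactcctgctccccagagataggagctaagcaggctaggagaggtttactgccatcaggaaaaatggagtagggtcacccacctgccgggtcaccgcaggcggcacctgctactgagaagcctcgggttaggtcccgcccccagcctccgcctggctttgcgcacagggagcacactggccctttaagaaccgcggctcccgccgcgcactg
Timp2 control-only bases, chr11:118324249-118324547: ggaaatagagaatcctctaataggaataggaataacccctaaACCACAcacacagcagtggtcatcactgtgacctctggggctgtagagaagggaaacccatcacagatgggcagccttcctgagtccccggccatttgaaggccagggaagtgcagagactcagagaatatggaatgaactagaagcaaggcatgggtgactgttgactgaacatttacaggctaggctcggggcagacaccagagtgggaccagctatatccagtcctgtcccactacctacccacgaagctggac
Adamts9 control-only bases, chr6:92903793-92903990: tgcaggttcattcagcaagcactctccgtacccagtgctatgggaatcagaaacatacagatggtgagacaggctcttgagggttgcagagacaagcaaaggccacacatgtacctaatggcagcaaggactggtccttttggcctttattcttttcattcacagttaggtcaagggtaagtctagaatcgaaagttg

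The Adamts3 stretch held 35 CpG dinucleotides and the Adamts9 promoter 22, whereas the Mmp7 promoter held 0. The Mmp7 promoter had an AP-1 match that began at -63 bp from the transcription start site (TSS), and the Timp2 element had 1 RUNX match. The Timp2 element is intronic. The Adamts9 element belongs to a region that overlaps an exon of the gene.

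Acetylation of the set was read first as coverage, the share of the window from 10 kb before to 10 kb after the TSS that peaks filled (in percent). Of the 44 members, 27 had some coverage in at least 1 tumor and are called covered. Coverage was higher in both control tumors than in either test tumor at 5 of these, Adamts5, Adamts9, Mmp7, Mmp14 and Mmp19, against 11.6% of all covered genes. It was higher in both test tumors at 4, Adamts3, Mmp15, Mmp17 and Mmp28, against 20.9% of all covered genes. The groups overlapped at the other 18. As shares of the covered members these were 18.5% and 14.8%. Over the covered members the median difference, mean of test minus mean of control, was -0.29 percentage points, and over all covered genes it was 0.28. The median of the members was 0.39 without control 2 and 0.05 without test 1, so its sign rested on single tumors. Over all covered genes the median was 0.43 without control 2 and -0.33 without test 1. With 2 tumors a group the smallest two-sided exact permutation p is 0.333, so no p is given for any gene.

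**Figure D1:**
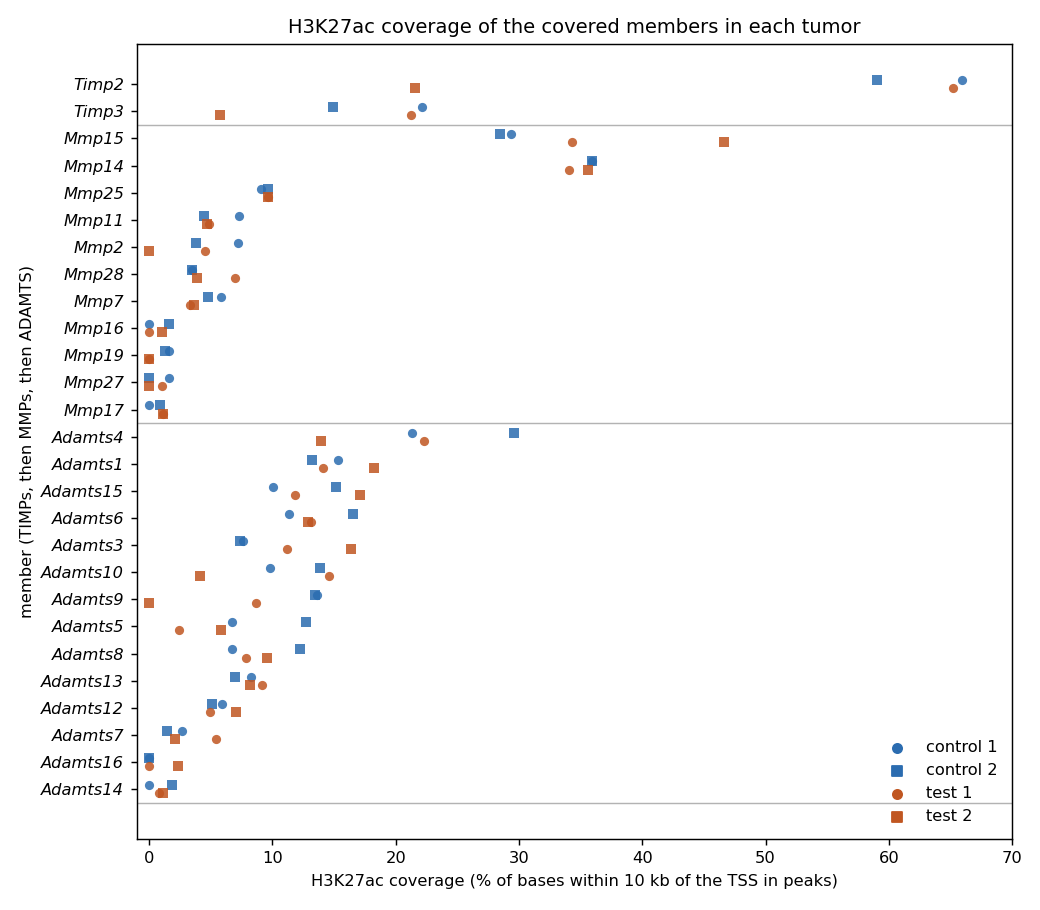
H3K27ac coverage (percent of bases within 10 kb of the TSS in peaks, horizontal axis) of the 27 covered members, with 1 point per tumor (blue control, orange test, circle replicate 1, square replicate 2). Timp2 had 66.0% in control 1 and 21.6% in test 2, and Mmp15 was the member whose 2 test tumors lay farthest above the control tumors.

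Promoters, 1 kb either side of the TSS, were acetylated in all 4 tumors at 16 members, beside 49.6% of all genes, and in at least 1 tumor at 25 members, beside 57.2% of all genes. As shares of the 44 members these were 36.4% and 56.8%. By tumor the count of acetylated promoters was 21 in control 1 and 23 in control 2, against 21 in test 1 and 20 in test 2. Over all 21938 genes these counts were 11747, 11834, 11878 and 11399 in the same order. A promoter with the mark in the 2 control tumors but in no test tumor was seen at 1 member, Mmp19, beside 0.533% of all genes. The reverse was seen at 0 members, beside 0.301% of all genes. The families differed in how many promoters carried the mark throughout, 10 of 19 in the ADAMTS genes, 4 of 22 in the MMPs and 2 of 3 in the TIMPs.

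Each tumor was the lowest at some members, control 1 at 6, control 2 at 7, test 1 at 4 and test 2 at 6, beside 26.9%, 20.4%, 8.82% and 35.5% of all covered genes in that order. Test 2 was far below the other tumors at a few members. Among the 14 members with at least 5% coverage in each of the other 3 tumors, 4 (Adamts9, Adamts10, Timp2 and Timp3) had less than 50% of the lowest of those values in test 2, beside 4.07% of all such genes. Counted the same way, test 1 was low at 1 of 14 members (Adamts5), and each control tumor at 0 of 12, beside 0.144% of all such genes for test 1, 0.223% for control 1 and 0.398% for control 2. This measure was set after the values had been seen. At Adamts9 both test tumors lay below both control tumors, and at the other 3 genes test 1 lay within or above the control tumors.

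Among the inhibitors, Timp2 had the highest coverage of the whole set in 3 of the 4 tumors. Timp2, which blocks MMPs and takes part with Mmp14 in the activation of the Mmp2 precursor, lies at chr11:118301069-118355740. Its coverage was 66.0% in control 1 and 59.1% in control 2, against 65.2% in test 1 and 21.6% in test 2. Test 1 lay between the control tumors and test 2 far below all of them, so the groups overlapped. The widest peak over its promoter measured 3977 bp in control 1 and 2999 bp in control 2, against 4320 bp in test 1 and 885 bp in test 2. The flanking domains were narrower in test 2 as well. A region centred at -6.57 kb from the TSS held 4477, 3639, 4104 and 1406 bp of peaks in the same order of tumors, and 1 centred at 7.88 kb downstream, in an intron, held 5085, 4984, 5218 and 2193 bp. All of them were still present in test 2, at smaller width. A control-only region, whose shared bases are printed above, lay 31.7 kb into the gene with 567 bp of peaks in control 1 and 891 bp in control 2.

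Timp3, the inhibitor that stays bound to the matrix and also blocks ADAM and ADAMTS proteases, lies inside an intron of Syn3 at chr10:86300372-86349506. Coverage was 22.1% in control 1 and 14.9% in control 2, against 21.2% in test 1 and 5.76% in test 2. The order of the tumors was that of Timp2. Near the 3′ end of the gene, at 39.7 kb from the TSS, 1 region held 4330, 3671, 4128 and 1985 bp. Of the 12 regions at Timp3, 6 were present in all 4 tumors and 0 were control-only or test-only. Timp4 had no peak in its window or body.

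**Figure D2:**
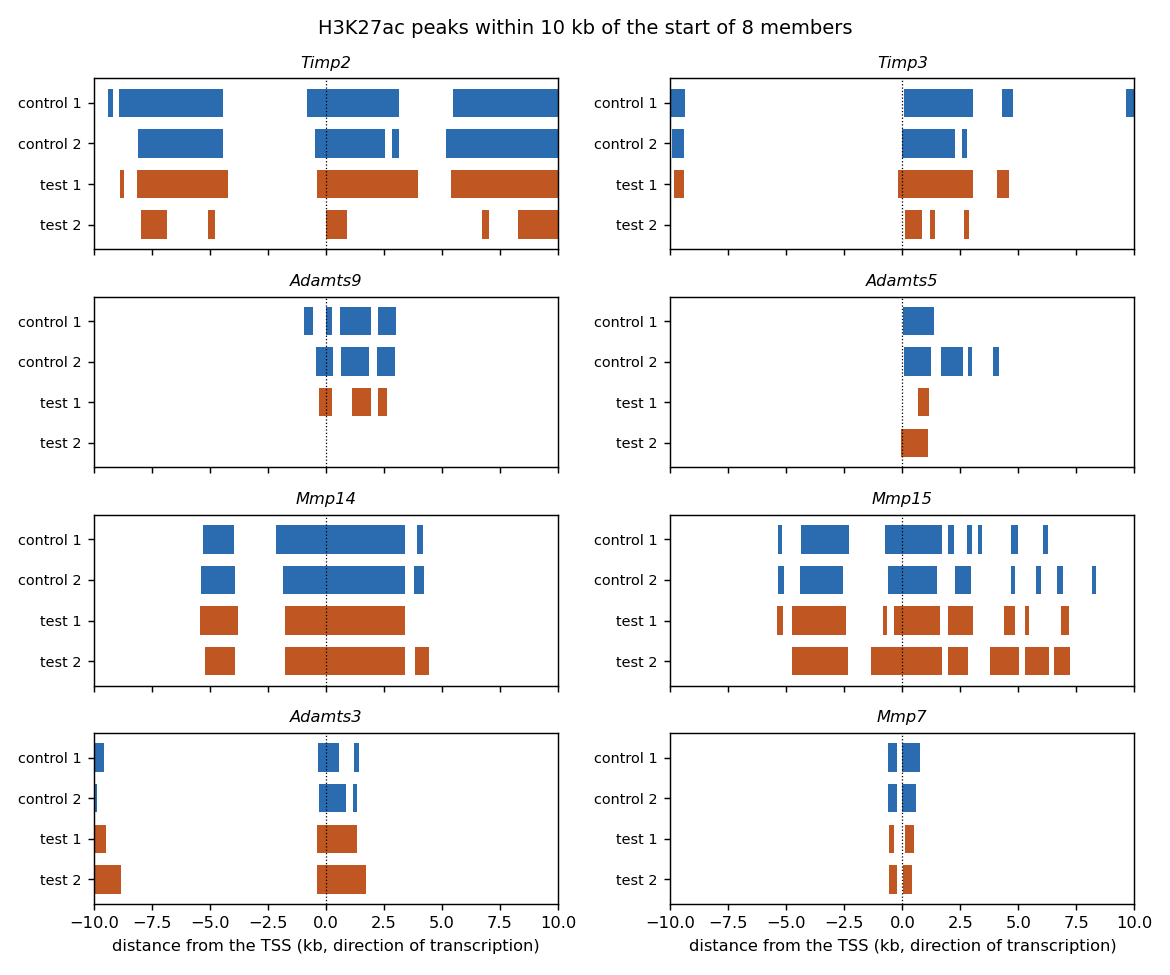
Peaks of each tumor (rows, blue control and orange test) within 10 kb of the TSS of 8 members, drawn by distance from the TSS in the direction of transcription (kb, horizontal axis). Peaks at Timp2 and Timp3 are narrower in test 2 than in the other 3 tumors, Adamts9 has no peak there in test 2, and the main peak of Mmp14 measures from 5154 to 5556 bp in every tumor.

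The membrane-bound MMPs act at the cell surface. Mmp14, the collagenase that activates the Mmp2 precursor, is at chr14:54431612-54445364. Its coverage was 35.9% in control 1 and 36.0% in control 2, against 34.1% in test 1 and 35.6% in test 2. Both control tumors lay above both test tumors, but the mean difference was -1.08 points, and the 4 pairings ran from -1.89 to -0.27 points. The peak over its promoter was 5556, 5273, 5154 and 5176 bp wide. With peaks that touch the promoter of another gene left out, coverage was 29.1%, 28.5%, 25.8% and 29.0% and the groups overlapped. A test-only region at 12.7 kb, over an exon, held 896 bp in test 1 and 351 bp in test 2.

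Mmp15, a close relative with a transmembrane domain, is at chr8:95352268-95375080. Coverage was 29.3% in control 1 and 28.5% in control 2, against 34.3% in test 1 and 46.6% in test 2. Both test tumors were above both control tumors, by 11.5 points in the mean with pairings from 4.91 to 18.1 points. Part of the difference lay in introns after the start. The region at 4.39 kb from the TSS held 291 and 159 bp in the control tumors and 485 and 1258 bp in the test tumors, and the region at 5.79 kb held 206 and 231 bp against 207 and 1006 bp. In the second of these the excess was that of test 2 alone. The promoter peak was 2469 bp in control 1 and 2112 bp in control 2, against 1981 bp in test 1 and 3050 bp in test 2, so the promoter peak itself overlapped between groups. Within 2.5 kb of the TSS the groups overlapped as well, at 58.6%, 46.5%, 55.2% and 74.8%.

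The remaining membrane-type genes had narrow promoter peaks or none. Mmp25, anchored by a lipid and known from neutrophils, had coverage of 9.07% in control 1 and 9.67% in control 2, against 9.62% in test 1 and 9.65% in test 2. Its promoter peak was 211, 223, 0 and 198 bp wide, absent in test 1 only, and most of the coverage came from a region at -9.07 kb that all 4 tumors shared. Mmp17, anchored in the same way, had 0% in control 1 and 0.86% in control 2, against 1.15% in test 1 and 1.15% in test 2, which is 1 peak of 172 to 231 bp at the promoter in 3 tumors. Its lower control tumor differed from the others by the presence of that single peak. Mmp16, with a transmembrane domain, had 0%, 1.58%, 0% and 1.01%, with a promoter peak in control 2 and test 2. Mmp24, another of this kind, had no coverage near its TSS, but 10.0% of its body lay in peaks in control 2 and 5.61%, 7.36% and 7.12% in control 1, test 1 and test 2.

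Of the gelatinases, which cut denatured collagen, Mmp9 had no peak in its window or body and its nearest peak lay 26.5 kb from the TSS. Mmp2, at chr8:92827291-92853420, had coverage of 7.20% in control 1 and 3.81% in control 2, against 4.56% in test 1 and 0% in test 2. Test 1 lay between the control tumors, and test 2 had no peak near the start. The body of the gene was still acetylated in test 2, at 8.64%, beside 13.9% in control 1, 7.37% in control 2 and 16.0% in test 1. The farthest of its regions also covered the promoter of Lpcat2.

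Among the secreted MMPs outside the cluster, Mmp11 (stromelysin 3, known from tumor fibroblasts) had 7.27% in control 1 and 4.41% in control 2, against 4.82% in test 1 and 4.73% in test 2. The GENCODE start used here lies 3.99 kb from the RefSeq start and inside Chchd10, so the signal of the 2 genes cannot be told apart here. Mmp19 had 1.58% in control 1 and 1.32% in control 2 and none in either test tumor. That control-only promoter rested on peaks of 242 and 158 bp, and it was lost when the widest 59762 peaks were kept in each tumor. Mmp28, an epithelial member, had 3.49% in control 1 and 3.43% in control 2, against 6.98% in test 1 and 3.86% in test 2. In the control tumors all of it was a peak at the promoter of the neighboring Taf15. Without peaks at other promoters Mmp28 had coverage only in test 1, at 3.83%, and its promoter peak, 183 bp, was likewise in test 1 only. Mmp21 and Mmp23 had no peak in window or body.

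A cluster of 9 MMP genes on chromosome 9, chr9:7272514-7699585, holds the collagenases Mmp13, Mmp1b and Mmp8, the stromelysins Mmp3 and Mmp10, the macrophage elastase Mmp12, Mmp27, the enamel protease Mmp20 and Mmp7. Over these 427 kb there were 11 peaks in control 1 and 6 in control 2, against 5 in test 1 and 4 in test 2, covering 4555, 2440, 1381 and 1382 bp. Both control tumors had more peak bases here than both test tumors, from peaks of at most 756 bp. In the same order the whole lists held 69861, 67850, 65763 and 59762 intervals, covering 73.1, 67.8, 73.0 and 64.3 Mb. Mmp13, Mmp12, Mmp1b, Mmp3, Mmp10 and Mmp8 had no peak in window or body, and the nearest peak to Mmp1b was 135 kb away. All peaks lay at the end of the cluster that holds Mmp27, Mmp20 and Mmp7.

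Mmp7, the matrilysin of glandular epithelium, was the only cluster gene with a promoter acetylated in all 4 tumors. Its coverage was 5.84% in control 1 and 4.76% in control 2, against 3.33% in test 1 and 3.66% in test 2. Both control tumors were above both test tumors, with a mean difference of -1.81 points and pairings from -2.51 to -1.10 points. The gene had 2 regions, centred at -0.42 kb and 0.38 kb from the TSS, and both were present in every tumor. The peak after the start measured 756, 591, 415 and 412 bp. The AP-1 match printed above lay in the gap between these peaks in each tumor, a gap of 215 bp in control 1 and 245 bp in control 2, against 446 bp in test 1 and 248 bp in test 2. Mmp27 had 1.57% in control 1 and 0% in control 2, against 1.06% in test 1 and 0% in test 2, from peaks of at most 213 bp. Mmp20 had no coverage near its TSS, and 3.6%, 1.48%, 0.36% and 0.62% of its body lay in peaks.

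**Figure D3:**
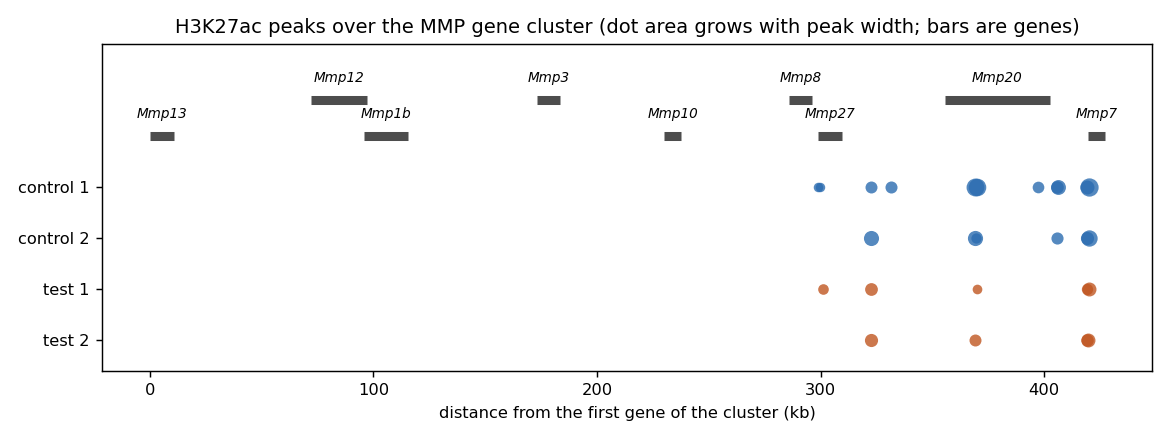
Peaks over the chromosome 9 MMP cluster in each tumor (rows, blue control and orange test) by distance from its first gene (kb, horizontal axis), with dot area growing with peak width and bars marking the 9 genes. No peak lies over the first 6 genes (Mmp13 to Mmp8), and the 4 tumors hold 11, 6, 5 and 4 peaks in the order drawn.

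Among the ADAMTS proteases that cut proteoglycans, Adamts9 had groups that did not overlap. The gene is at chr6:92772699-92943492, and it had coverage of 13.6% in control 1 and 13.4% in control 2, against 8.69% in test 1 and 0% in test 2. The difference was -9.16 points, with pairings from -13.6 to -4.72. Its widest promoter peak was 1342, 1192, 541 and 0 bp. None of its 8 regions was present in test 2, and 1 was control-only, the 260 bp element 39.6 kb from the TSS whose shared bases are printed above. Test 1 alone also lay below both control tumors, which is already part of the groups not overlapping and is no further check.

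Adamts5, an aggrecanase, had 6.72% in control 1 and 12.8% in control 2, against 2.38% in test 1 and 5.79% in test 2. The groups did not overlap, but the closest pairing, test 2 against control 1, differed by -0.92 points, and the promoter peaks, 1344, 1182, 476 and 1159 bp, were of like width in 3 of the 4 tumors. Adamts4, the other main aggrecanase, had 21.3%, 29.6%, 22.3% and 13.9% over the 10 kb window, where the groups overlapped. Within 2.5 kb of its TSS coverage was 55.8% in control 1 and 68.1% in control 2, against 38.9% in test 1 and 31.4% in test 2, higher in both control tumors.

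Adamts1, a versican-cutting protease, had 15.3% in control 1 and 13.2% in control 2, against 14.1% in test 1 and 18.3% in test 2, and its promoter peak was 2904, 1684, 2813 and 2815 bp wide. Adamts15 had 10.1%, 15.1%, 11.8% and 17.1%, and Adamts8, its neighbor on chromosome 9, had 6.72%, 12.3%, 7.82% and 9.54%. At all 3 genes the groups overlapped. Adamts15 held a test-only intronic region at 14.5 kb, with 248 bp in test 1 and 161 bp in test 2. Adamts20, of the same class, had no peak.

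The procollagen N-proteinases prepare fibrillar collagens for assembly. Adamts3 is at chr5:89677087-89883334. Coverage was 7.63% in control 1 and 7.33% in control 2, against 11.2% in test 1 and 16.3% in test 2, higher in both test tumors by 6.27 points, with pairings from 3.54 to 9.0. The promoter peak was wider in both test tumors too, at 898 and 1171 bp in the control tumors and 1732 and 2112 bp in the test tumors. Adamts14 had 0%, 1.89%, 0.83% and 1.08%, with a promoter peak of at most 220 bp missing in control 1. Adamts2 had no coverage near its TSS. Its body held 5 regions, of which 1, at 67.9 kb in an intron, was control-only with 250 and 274 bp.

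The other ADAMTS genes showed overlapping groups. Adamts6, a close relative of Adamts10, had 11.4% in control 1 and 16.6% in control 2, against 13.2% in test 1 and 12.9% in test 2. Adamts10, tied to fibrillin fibers, had 9.81%, 13.8%, 14.6% and 4.09%, with a promoter peak of 622 bp in test 2 and of 1477 to 2254 bp elsewhere. Adamts12 had 5.89%, 5.12%, 4.93% and 7.01%. These 3 promoters were acetylated in all 4 tumors. Adamts7, which like Adamts12 cuts cartilage oligomeric matrix protein, had 2.70%, 1.43%, 5.39% and 2.13% and held a control-only intronic region at 35.1 kb with 496 and 187 bp. Adamts13, the protease of von Willebrand factor, had 8.27%, 6.96%, 9.11% and 8.21%, all of it in peaks at other genes' promoters, and a control-only region over an exon at 25.5 kb with 730 and 266 bp. Adamts16 was covered in test 2 only, at 2.37%. Adamts17 and Adamts18 had peaks in the body alone, over at most 1.14% of it, and Adamts19 had none.

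Across the set the peaks of the 4 tumors formed 163 regions at 32 members. Of these 55 (33.7%) were present in all 4 tumors, beside 38.2% of all autosomal regions, 7 in both control tumors only and 2 in both test tumors only. The last 2 counts are 4.29% and 1.23% of the members' regions, beside 3.42% and 1.47% of all autosomal regions. At least 1 control-only region was held by 7 of the 32 members (21.9%), beside 11.1% of all genes with a region. A test-only region was held by 2 (6.25%), beside 5.82%. These shares were not adjusted for the number of regions a gene holds, which was 163 over the 32 members and 64426 over all 15801 genes with a region. Acetylation shared by all tumors was most frequent at promoters, at 18 of 33 regions, and least in introns, at 17 of 75. Regions of a single tumor numbered 14 in control 1 and 21 in control 2, against 14 in test 1 and 17 in test 2. As shares of the members' regions these were 8.59%, 12.9%, 8.59% and 10.4%, beside 10.2%, 9.28%, 7.93% and 8.70% of all autosomal regions.

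The members' promoters were also compared by sequence. RefSeq promoters, 250 bases before to 50 after the start, were found for 30 members, and 28 whose RefSeq start lay within 1 kb of the GENCODE start were used. The ratio of observed to expected CpG had a median of 0.625 at the 8 promoters acetylated in all 4 tumors and of 0.104 at the 15 acetylated in none. Over all protein-coding genes these medians were 0.795 and 0.257. Some CpG-rich promoters had no peak, with ratios of 0.948 at Adamts2 and 0.918 at Mmp24, and Mmp7 was acetylated in every tumor at a ratio of 0.0878.

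The AP-1 motif TGANTCA, which reads the same on both strands, is a classical element of MMP promoters. It was found in 6 of the 28 promoters, or 21.4%, beside 6.55% of all promoters. Among promoters acetylated in all 4 tumors it was in 12.5% of the members, beside 4.39% of all genes. Among those acetylated in 1 to 3 tumors the shares were 0% and 6.52%, and among those in none 33.3% and 9.90%. All of these 6 genes, Mmp1b, Mmp3, Mmp7, Mmp10, Mmp13 and Mmp20, belong to the chromosome 9 cluster. Of the 6, Mmp7 was acetylated in all 4 tumors and the other 5 in none. The RUNX motif TGTGGT on either strand was found in 5 promoters, or 17.9%, beside 14.3% of all promoters. Neither motif contains the other. A match is a description of the letters and not a bound site.

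**Figure D4:**
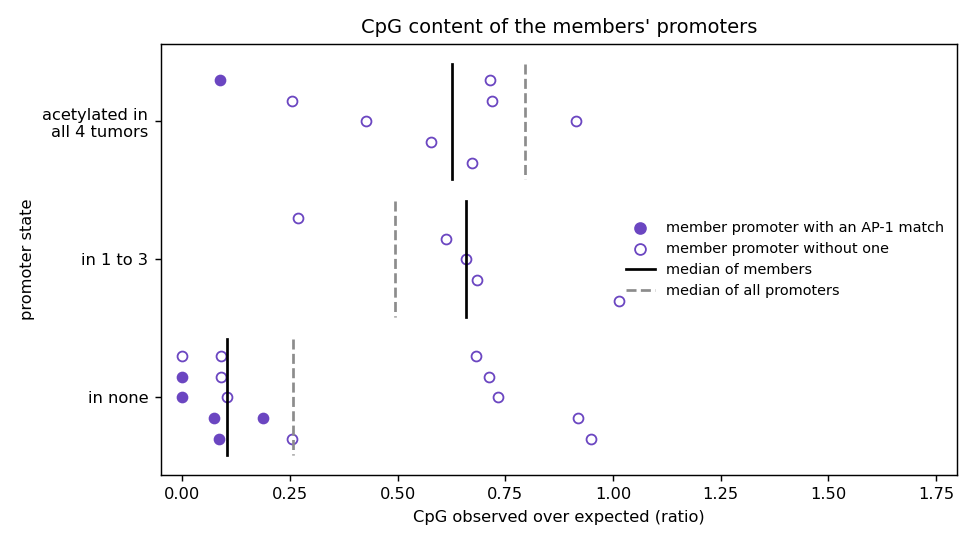
Observed over expected CpG (ratio, horizontal axis) of 28 member promoters, grouped by the number of tumors in which the promoter was acetylated, with filled points for promoters with an AP-1 match and lines for the medians of members (solid) and of all promoters (dashed). Unacetylated members mostly sit at low ratios, with a median of 0.104, and 5 of the 6 AP-1 matches are among them.

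Other genes of the system were read in the same way. Of 20 regulators of the matrix proteases (activating convertases, the plasminogen system, receptors and further inhibitors), coverage was higher in both control tumors at 5 genes, and 2 went the other way. Over all covered genes the 2 shares are the 11.6% and 20.9% given above, which also stand beside the counts of the lists that follow. Plau, the urokinase that activates plasminogen, had 18.5% in control 1 and 17.1% in control 2, against 12.9% in test 1 and 8.23% in test 2. Pcsk6, a convertase that activates precursors, had 6.56%, 9.21%, 1.92% and 2.61%. Pcsk7, another convertase, went the other way with 13.0%, 14.8%, 16.3% and 21.6%, as did the cell surface proteoglycan Sdc4 with 57.4%, 53.8%, 61.6% and 59.7%.

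Of the 8 covered ADAM proteases, the membrane-anchored relatives that shed surface proteins, 5 were higher in both control tumors and 0 in both test tumors. Adam19 had 16.9% in control 1 and 15.5% in control 2, against 9.05% in test 1 and 3.58% in test 2, and Adam8, known from leukocytes, had 7.29%, 4.25%, 0% and 0%. Of the 9 covered matrix substrates 4 were higher in both control tumors and 0 in both test tumors. Col4a1, the basement membrane collagen, had 23.5%, 28.2%, 12.2% and 4.44%, and decorin (Dcn) had 4.16%, 7.69%, 0% and 0%. None of the 3 covered ADAMTS-like genes, which encode matrix proteins without a protease domain, had groups that did not overlap. The median difference was -0.97 points in the regulators, -1.94 in the ADAM proteases, 1.01 in the ADAMTS-like genes and -2.90 in the substrates, beside 0.28 over all genes.

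Markers of the cell types that a tumor piece can hold were read beside the members. Of 10 fibroblast markers 7 were covered and 3 were higher in both control tumors. Their summed coverage was 44.5 to 49.8 percentage points in the control tumors and 6.46 to 32.4 in the test tumors, lowest in test 2, with Fap, Thy1 and Lum at 0 in every tumor. The collagen markers, Dcn and Lum are also in the substrate list. Of 10 endothelial markers 7 were covered and 4 were higher in both control tumors, with sums of 32.0 to 33.4 in control and 5.52 to 13.8 in test, and Tie1, Vwf and Erg at 0. Of 10 myeloid markers 9 were covered and 5 were higher in both control tumors, with sums of 143 to 151 in control and 88.6 to 127 in test, and Adgre1 at 0.

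The luminal epithelial markers, which define the labelled tissue, were all covered. Of these 10, 3 were higher in both test tumors and 0 in both control tumors, with sums of 381 to 390 in control and 405 to 406 in test. Of 8 myoepithelial markers 7 were covered and 1 was higher in both control tumors, with sums of 17.0 to 45.0 in control and 14 to 47.9 in test, which overlapped, and Trp63 at 0. Of 7 T cell markers 6 were covered, 2 higher in both control tumors and 1 in both test tumors, with sums of 5.30 to 8.18 in control and 1.01 to 1.27 in test, and Cd8a at 0. Of 6 neuronal markers, for a type the tumor should lack, 2 were covered and 1 (Slc17a7) was higher in both control tumors, with sums of 11.3 to 19.8 in control and 6.53 to 11 in test, and Rbfox3, Snap25, Syt1 and Stmn2 at 0. The part of these cell types in the differences at Timp2, Adamts9 and the other members was not tested.

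**Figure D5:**
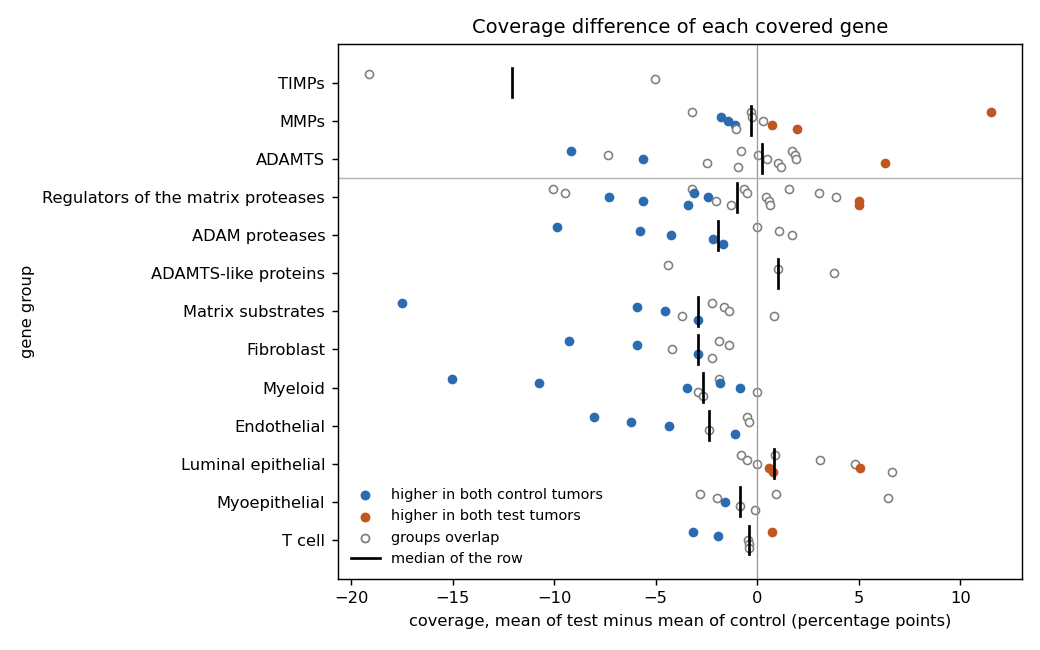
Coverage difference (mean of test minus mean of control, percentage points, horizontal axis) of each covered gene, with the members above the line and the other pathway and marker lists below. Filled points are genes whose groups do not overlap (blue higher in control, orange higher in test), open points overlap and black bars are medians, which are -0.29 in the MMPs, 0.24 in the ADAMTS genes and between -2.90 and -2.39 in the substrate, fibroblast, myeloid and endothelial lists.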

How the data were processed

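H3K27ac was measured in 4 breast tumors, 2 control and 2 test, each with a matched input that was not analysed here. The authors aligned reads with BWA to mm10 (both named in the submitters' processing notes) and ran MACS2 on each tumor against its input. The deposited lists hold interval starts and ends in base pairs, cleaned and merged, with a smallest gap of 201 bp and no score. Read depth is unknown, and a deeper library can give more and wider peaks, so width mixes depth with acetylation.

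Groups followed the genotype given per the labels, and tumor numbers only name tumors. Genes were those of GENCODE M21 on 21 chromosomes, with the 5′ end of the gene as TSS. Overlapping or touching peaks of the 4 tumors were united to regions, each counted as present where a tumor had at least 1 bp of peak. It counted for a member when it overlapped the 10 kb either side of the TSS or the gene body. Coverage, promoter state and regions were computed in Python 3.11.15 with numpy 2.4.6, and sequences were read with pysam 0.24.0. The interval arithmetic was tested on simulated data. No test was run, since an exact permutation of 2 tumors a group allows no p below 0.333. Differences are given with the range over the 4 test and control pairs.

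Values in every tumor were given for members with an acetylated promoter in at least 1 tumor, with coverage that did not overlap between groups, or with a control-only or test-only region, and for up to 8 pathway genes with the largest difference among those that did not overlap. Members without a peak are named only. The values of 1 control-only region are not reported here. Sequences were limited to 6 elements of members with such coverage or regions. A few body values of other members were added after they were seen. The members, lists and alternatives were chosen with earlier results of these data known. Alternatives changed the window, the promoter, the peaks used, the starts used and the tumors included. Marker and pathway lists were matched by symbol, and 1 T cell marker, Trac, had no protein-coding match.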

Additional observations from a re-analysis of the deposited data

How the results depend on the processing

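The promoter count in all 4 tumors was 14 to 16 and that in at least 1 tumor 23 to 25 under the other alternatives that kept every tumor, apart from peak width. With peaks at least 1 kb wide, 4 members had an acetylated promoter in all 4 tumors and 16 in at least 1 tumor, 3 had coverage higher in both control tumors, 3 regions were control-only and 1 test-only, and 2 promoters were control-only. Over all 21938 genes that setting gave 6756 and 9643 acetylated promoters and 96 control-only ones, and coverage higher in both control tumors at 9.54% of covered genes. The median difference was -2.36 points within 2.5 kb, -0.77 with peaks at least 1 kb wide, -0.0075 with equal peak numbers, -1.17 with peaks within 1 kb joined and 0.0124 with all annotated starts. Over all covered genes these medians were 0.97, 0.44, 0.38, 0.19 and 0.21. Within 2.5 kb, coverage was higher in both control tumors at 8 members and in both test tumors at 2, beside 10.9% and 22.1% of all covered genes. With equal peak numbers, 0 promoters were control-only and 1 was test-only, beside 95 and 91 over all genes. Test-only regions numbered 0 with peaks joined and 1 with at least 50% of the region covered.

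Leaving out 1 tumor gave, from lowest to highest, 16 to 18 and 24 to 25 members for the promoter counts, a median difference of -0.93 to 0.39, 6 to 11 members higher in control, 7 to 9 higher in test, 10 to 30 control-only regions, 4 to 19 test-only regions, 1 to 3 control-only promoters and 0 to 2 test-only promoters. With 1 tumor in a group these counts rise by construction, and over all covered genes the shares ran from 18.2% to 39.3% higher in control and from 32.5% to 50.1% higher in test. Without test 1, 10 members were higher in control, beside the 39.3%. Without test 2, 6 members were higher in control and 7 in test, beside 18.2% and 50.1% of all covered genes. Under the window, peak and start alternatives, none of the 9 members whose groups did not overlap changed the sign of its difference. With peaks at least 1 kb wide the differences of Mmp7 and Mmp17 were 0. Leaving out 1 tumor could not change the sign at these 9 members, since they were picked for groups that did not overlap. A kept sign can also go with groups that overlap, as at Mmp15 within 2.5 kb. No paired analysis was possible because the numbers only name separate tumors, given in accession order and not by the labels, and no test was run.

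Limits are the 2 tumors a group, the unknown depth, peak lists without height, and tissue of mixed cells. The promoter peaks of Mmp17, Mmp19 and Mmp28 are at most 242 bp wide, and the caller's threshold was not varied.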
